A study of Macaca mulatta with 19 samples.

Results

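Chronic testosterone was compared with its control in luteinized granulosa cells of rhesus macaques that ate a Western-style diet (WSD). The comparison holds 11 of the 19 RNA sequencing libraries of the study, all those whose labels give this diet. WSD+T denotes females on WSD with an implant of testosterone (n = 6), set to a level 4 to 5 fold above the control. WSD+C denotes females on WSD with an implant of cholesterol, the control implant (n = 5). Treatment began near menarche with 10 animals enrolled per treatment, and after about 3.5 years the follicle that the ovary had itself selected was aspirated shortly before ovulation, in a controlled cycle. Each library is 1 animal and is named here by its group and a number, so that WSD+C 4 is the fourth of the WSD+C libraries. The aspirates were not described as sorted, so a library can hold blood and follicle wall cells beside granulosa cells. By the labels the oocyte of the same follicle was at metaphase II in WSD+T 1, at metaphase I in WSD+T 2 and 5 and in WSD+C 1, 2 and 3, and degenerating in WSD+T 3, 4 and 6 and in WSD+C 4 and 5. The question the comparison addresses is what excess androgen adds to this diet in the follicle.

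Granulosa cells surround the oocyte and convert androgen to estrogen through aromatase. After the ovulatory surge of luteinizing hormone they luteinize, stop dividing and turn to making progesterone from cholesterol, and they release peptides, proteases and prostaglandins that open the follicle. Androgen can act on them directly as well as serve as a substrate. Red blood cells, whose globin RNA is abundant, and white blood cells enter a follicle as it approaches rupture, and needle aspiration can add blood.

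Of these libraries WSD+C 4 stood furthest from its group. HBB, the beta globin of red blood cells, was at 295, 1304, 1049, 1051, 112 and 1697 CPM (counts scaled by TMM to a common library size) in WSD+T 1 to 6. In WSD+C 1 to 5 it was at 48.5, 7.59, 257, 96410 and 446 CPM. The value of WSD+C 4 was 216 times that of the next WSD+C library and 35.8 times the highest of the other 18 libraries, and HBB took 11.6% of its gene counts. The identifier named HBB in the table is named HBE1 in the reference table of symbols, so which beta-type globin it counts is uncertain. WSD+C 4 differed in many other genes. It was the highest of the 11 libraries for 26.7% of the 15019 tested genes and the lowest for 28.5%, where the other 10 libraries were highest for 1.9% to 12.3% and lowest for 2.6% to 10.7%.

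Granulosa markers were present in every library. At least 10 of the 11 granulosa markers in the table reached 1 CPM in each, and their summed level was 9367 to 15590 CPM in WSD+T and 11580 to 17930 CPM in the WSD+C libraries other than WSD+C 4, which had 4024 CPM. Inhibin alpha, INHA, was at 3980 to 6653 CPM in WSD+T, at 231 CPM in WSD+C 4 and at 4757 to 7202 CPM in the other 4 WSD+C libraries. The 13 macrophage markers summed to 2860 CPM in WSD+T 6, to 12.6 to 88.0 CPM in the other WSD+T libraries, to 368 CPM in WSD+C 4 and to 11.6 to 33.3 CPM in the other WSD+C libraries. The 13 lymphocyte markers summed to 1.51 to 156 CPM in WSD+T, to 450 CPM in WSD+C 4 and to 0.216 to 7.59 CPM in the other WSD+C libraries. The 156 CPM were those of WSD+T 6, where CD4 alone was at 126.5 CPM and the T cell gene CD3E at 3.4 CPM. In WSD+C 4 CD4 was at 25.7 CPM and CD3E at 71.3 CPM. Markers of smooth muscle summed to 43.2 to 187 CPM in WSD+T, to 2693 CPM in WSD+C 4 and to 38.4 to 116 CPM in the other WSD+C libraries. Of the 11 granulosa markers, WSD+C 4 had the lowest value of the 11 libraries for 7 and the highest for 2 (FSHR at 81 CPM and AMHR2 at 8.70 CPM), and GJA1 and SERPINE2 lay within the range of the other libraries. WSD+C 4 thus held high RNA of blood and muscle genes and a low summed level of granulosa markers, and WSD+T 6 held the highest macrophage RNA. In such bulk libraries fewer cells of a type and less RNA per cell cannot be told apart. Gene counts per library were 35338126 to 56385679 in the 11 libraries.

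**Figure D1:**
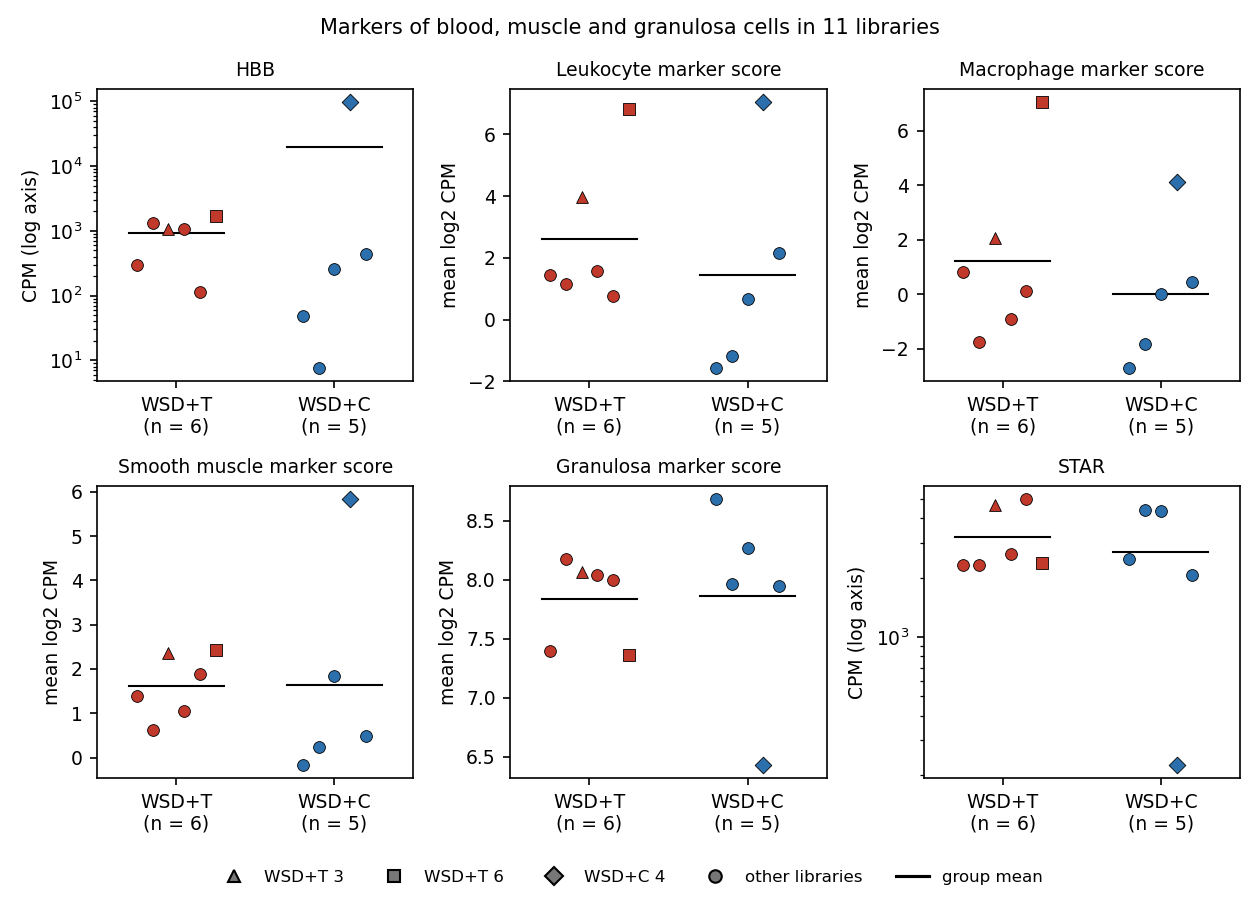
TMM-scaled CPM of HBB and STAR (log axes) and mean log2 CPM of 4 marker lists in each library, WSD+T (red, n = 6) and WSD+C (blue, n = 5); lines are group means. WSD+C 4 (diamond) has the highest HBB and smooth muscle score and the lowest granulosa score and STAR, and WSD+T 6 (square) has the highest macrophage score.

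No gene passed an adjusted p of 0.05 between WSD+T and WSD+C. EdgeR's quasi-likelihood test with Benjamini-Hochberg adjustment called 0 of 15019 genes (0%; smallest adjusted p = 0.999), and DESeq2 and limma voom with quality weights also called 0. At an unadjusted p under 0.05, edgeR had 579 genes, 3.86% of those tested, 105 of them higher (0.699%) and 474 lower (3.16%) in WSD+T. DESeq2 had 589 such genes and limma voom 332. The genes described below are therefore the most different ones by rank, with none past the adjusted threshold.

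The balance between higher and lower genes was opposite with and without WSD+C 4. Without that library edgeR called 0 of 14767 genes (0%; smallest adjusted p = 0.921), and 701 genes (4.75%) had an unadjusted p under 0.05, of which 597 were higher (4.04%) and 104 lower (0.704%) in WSD+T. The share of lower genes was 81.9% with WSD+C 4 and 14.8% without it. Only 116 genes had an unadjusted p under 0.05 in both fits, which is 20.0% of the 579 and 16.5% of the 701. When any other of the 11 libraries was left out, 66.0% to 86.0% of the 579 genes kept an unadjusted p under 0.05. Of the 474 lower genes, 420 (88.6%) had their highest value in WSD+C 4, and 43 of the 105 higher genes (41.0%) had their lowest value there. Without WSD+C 4, 127 of the 579 log2 fold changes had the opposite sign and 302 lost more than 50% of their size, and 48 genes were no longer tested because their counts were too low.

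**Figure D2:**
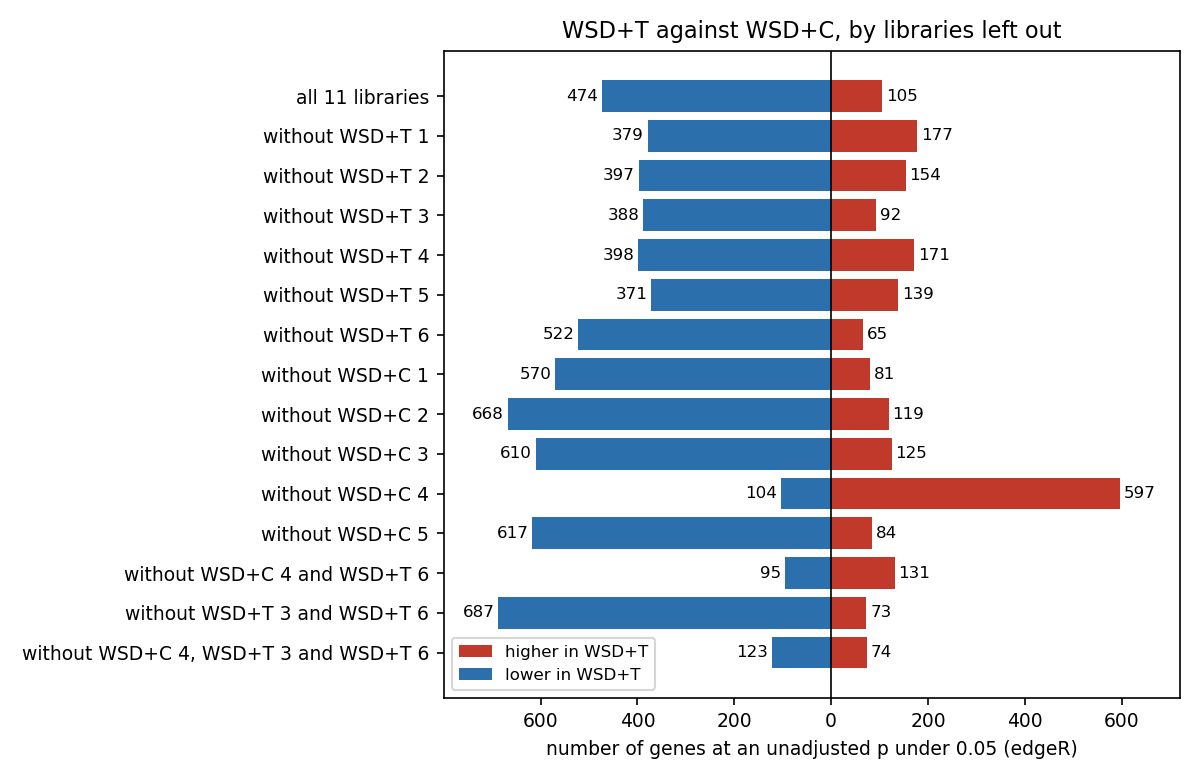
Number of genes at an unadjusted p under 0.05 in edgeR's test of WSD+T against WSD+C, higher (red, to the right) and lower (blue, to the left) in WSD+T, with all 11 libraries and with the named libraries left out. With all libraries 105 genes are higher and 474 lower, and without WSD+C 4 there are 597 higher and 104 lower.

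Most of the genes higher without WSD+C 4 had their highest value among the libraries then left in 1 of them. Of those 597 genes, 500 had that highest value in WSD+T 6, and 477 had WSD+T 3 and WSD+T 6 as the highest libraries left. Over all 11 libraries WSD+T 6 was the highest for 12.3% of the tested genes, and WSD+T 3 and WSD+T 6 were the highest libraries for 6.08%. Genes selected as higher in WSD+T are more often highest in a WSD+T library, so these shares are not a like comparison. With WSD+C 4 and WSD+T 6 both left out, 226 of 14670 genes (1.54%) had an unadjusted p under 0.05, 131 higher (0.893%) and 95 lower (0.648%) in WSD+T, and edgeR called 0 (0%) after adjustment. Of the 597 genes 112 were still higher, and of the 104 lower genes 61 were still lower. The biological coefficient of variation, the spread between animals of a group that edgeR estimates, was 0.583 with all libraries, 0.5 without WSD+C 4 and 0.457 without both libraries.

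**Figure D3:**
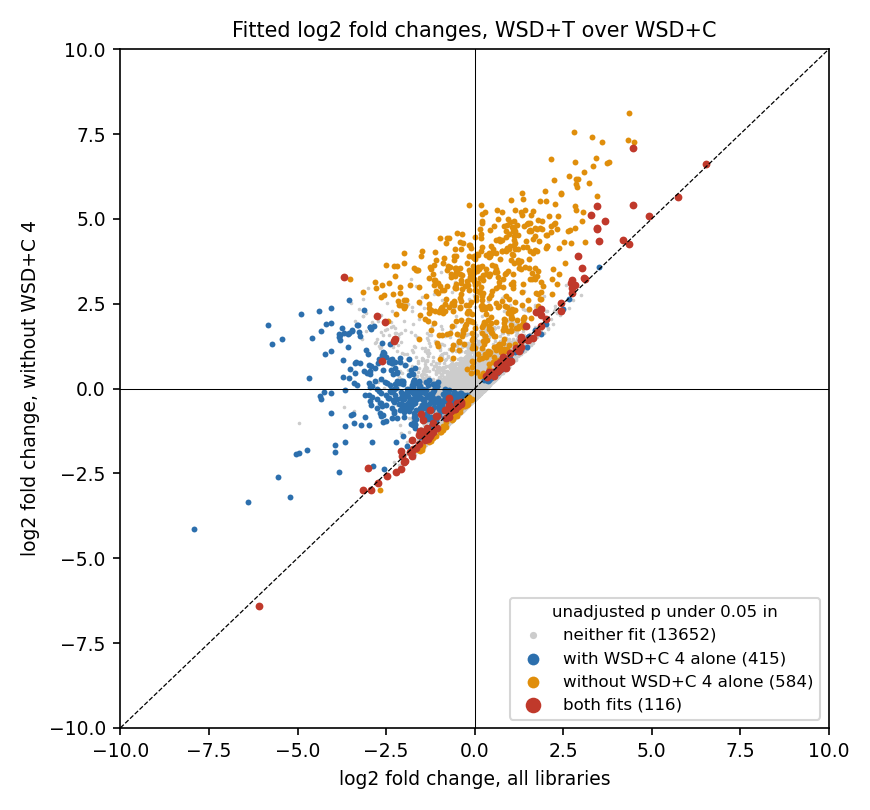
Fitted log2 fold changes, WSD+T over WSD+C, with all libraries (x axis) and without WSD+C 4 (y axis) for the 14767 genes in both fits, 1 of which lies outside the axes. Colours mark genes at an unadjusted p under 0.05 with all libraries alone (415, blue), without WSD+C 4 alone (584, orange), in both fits (116, red) or in neither (13652, grey); the dashed line marks equal values.

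A group of genes kept its difference whichever library was left out. Of the 15019 tested genes, 37 had an unadjusted p under 0.05 with all libraries and in each of the 11 fits that left out 1 library. Their signs were the same throughout, with 15 higher and 22 lower in WSD+T. Of the 37 genes, 24 (9 higher, 15 lower) also kept that p and sign in every one of a set of further fits. In that set 1 fit left out WSD+C 4 and WSD+T 6, and the others each had oocyte class, log2 HBB or the leukocyte score as a term. All these fits share most libraries with the fit that selected the genes, so they are not independent of it. No gene passed after adjustment. In 11 genes (0.0732%) the 6 WSD+T values and the 5 WSD+C values did not overlap. Those were MIR6812, STX10 and POLE2, higher (0.02%), and IL18R1, ALDH18A1, FMO2, DNM3, RASSF9, SIAE, RUBCN and ZNF780B, lower (0.0533%) in WSD+T. Without WSD+C 4, 16 genes were separate and higher (0.108%) and 23 separate and lower (0.156%), and these include the same 11. That was set in advance, since leaving out a library does not by itself make separate groups overlap. How many genes would be separate by chance was not tested. Of the 11 genes, all but IL18R1, ALDH18A1 and RASSF9 lie outside the rule for named genes and are listed because their values were seen not to overlap.

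IL18R1 (ENSMMUG00000009244), the ligand-binding chain of the interleukin 18 receptor, was at 1.10, 2.73, 1.58, 2.38, 2.71 and 2.59 CPM in WSD+T 1 to 6. In WSD+C 1 to 5 it was at 11.4, 8, 2.95, 6.04 and 7.89 CPM. All WSD+T libraries lay below all WSD+C libraries, of which WSD+C 3 came closest to them. The log2 fold change was -1.73 (SE 0.42; unadjusted p = 0.00065, adjusted p = 0.999 by edgeR), it was -1.79 without WSD+C 4, and it ranged from -1.93 to -1.51 over the fits that left out 1 library. IL18R1 was thus a low-abundance gene whose difference was as large without the library of high HBB.

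IL1RL1 (ENSMMUG00000009238), the receptor of interleukin 33, was at 15.1, 21.6, 9.13, 9.59, 12.1 and 13.7 CPM in WSD+T 1 to 6. In WSD+C 1 to 5 it was at 107, 37.8, 28.3, 7.17 and 106 CPM. Here WSD+C 4 was the lowest of all 11 libraries, and the other 4 WSD+C libraries lay above every WSD+T library. Its log2 fold change of -2.08 (SE 0.68; unadjusted p = 0.0068, adjusted p = 0.999 by edgeR) was accordingly larger in size, -2.36, without WSD+C 4. IL1RL1 and IL18R1 are neighbours on chromosome 13 in the T2T-MMU8v2.0 assembly, within a row of interleukin 1 family receptor genes. Of the other genes of that row, IL1R1, IL1R2 and IL1RL2 had an unadjusted p above 0.05 by edgeR. Their log2 fold changes were 0.14 (SE 0.62) for IL1R1, -0.38 (SE 0.41) for IL1R2 and -0.03 (SE 0.58) for IL1RL2. IL18RAP, the next gene after IL18R1, is not described here. On chow, the log2 fold change of testosterone over control was -1.41 (SE 0.79) for IL1RL1 and -0.41 (SE 0.48) for IL18R1, and the difference between diets had an unadjusted p of 0.523 for IL1RL1 and 0.053 for IL18R1 (adjusted p at least 0.933 by edgeR).

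Among enzymes and structural genes, ALDH18A1 (ENSMMUG00000003102), which makes the precursor of proline, was at 57.1, 68.8, 53.3, 64.1, 64.1 and 59.2 CPM in WSD+T 1 to 6. In WSD+C 1 to 5 it was at 75.0, 74.9, 80.5, 162 and 113 CPM. The groups did not overlap, and WSD+C 4 was the highest library. Its log2 fold change of -0.73 (SE 0.20; unadjusted p = 0.002, adjusted p = 0.999) was -0.49 without WSD+C 4. TMEM98 (ENSMMUG00000022356), a membrane protein, was at 11.8, 17.6, 12.8, 15.6, 11.5 and 11.5 CPM in WSD+T 1 to 6 and at 23.4, 38.3, 15.3, 45.7 and 16.6 CPM in WSD+C 1 to 5. WSD+C 3 and WSD+C 5 lay within the WSD+T range, and the log2 fold change was -1.05 (SE 0.27), or -0.79 without WSD+C 4. Both values were smaller in size without the library of high HBB and had the same sign.

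WASF1, a subunit of the WAVE complex that starts actin branches, was at 8.57 to 23.8 CPM in WSD+T and at 35.9, 21.8, 20.2, 91.5 and 20.5 CPM in WSD+C 1 to 5. ZSCAN12, a zinc finger gene, was at 1.66 to 3.38 CPM in WSD+T and at 5.71, 3.92, 2.89, 17.6 and 3.45 CPM in WSD+C 1 to 5. For both genes WSD+C 4 was far above the rest, and the log2 fold change of WASF1 was -1.25 with it and -0.62 without it. That of ZSCAN12 was -1.51 with it and -0.76 without it. ADAM18, a member of the ADAM family of membrane proteins known from the testis, had a log2 fold change of -1.53, or -1.25 without WSD+C 4. FIBIN, with 59.5 CPM in WSD+C 4 against at most 10.9 CPM in any other of the 11 libraries, had -2.89, or -1.57 without WSD+C 4.

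RASSF9 (ENSMMUG00000044627), a gene with a Ras association domain, was at 3.15, 3.52, 0.978, 3.23, 1.79 and 1.19 CPM in WSD+T 1 to 6. In WSD+C 1 to 5 it was at 3.93, 10.5, 4.03, 3.68 and 4.17 CPM. The groups did not overlap, but by little for 3 WSD+T libraries, and WSD+C 2 was the highest. The log2 fold change was -1.18 (SE 0.40; unadjusted p = 0.009, adjusted p = 0.999 by edgeR), -1.29 without WSD+C 4 and -0.78 without WSD+C 2.

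Of the named genes, IER3, PLPP2, ANAPC15, SEMA4B, SLC20A1, SERPINB1 and EDN2 were among the 15 higher ones. IER3 (ENSMMUG00000014072), an early gene of stress and growth factor responses, was at 21.6, 14.9, 40.6, 12.7, 18.5 and 39.6 CPM in WSD+T 1 to 6 and at 5.13, 14, 10.4, 11.8 and 13.2 CPM in WSD+C 1 to 5. Only WSD+T 4 lay within the WSD+C range, and WSD+T 3 and WSD+T 6 were the highest. For IER3 the log2 fold change was 1.18 (SE 0.41; unadjusted p = 0.01, adjusted p = 0.999 by edgeR), 1.21 without WSD+C 4 and 0.63 without both WSD+T 3 and WSD+T 6. MAFF, a small MAF transcription factor whose p was not under 0.05 in every such fit, was at 69.0 to 179 CPM in WSD+T and 59.8 to 76.5 CPM in WSD+C, with 0.68 and, without WSD+C 4, 0.69 as log2 fold changes.

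PLPP2, a lipid phosphate phosphatase, was at 25.4, 5.27, 13.2, 17.8, 23.3 and 13.8 CPM in WSD+T 1 to 6 and at 2.34, 8.54, 2.89, 12 and 4.44 CPM in WSD+C 1 to 5. All WSD+T libraries but WSD+T 2 lay above every WSD+C library, and the log2 fold change was 1.45 (SE 0.55), or 1.86 without WSD+C 4. Unlike IER3 it did not have its highest values in WSD+T 3 and WSD+T 6, and it gave 1.56 without those libraries. ANAPC15, a subunit of the anaphase-promoting complex, was at 10.7 to 13.5 CPM in WSD+T and 8.70 to 10.9 CPM in WSD+C (log2 fold change 0.36, SE 0.13), a small difference that was 0.33 without WSD+C 4. SEMA4B, a semaphorin, had 0.67, or 0.52 without WSD+C 4, and GCLC, the catalytic subunit of the enzyme that limits glutathione synthesis, had 0.99, or 0.78. LCN2, a secreted carrier of iron-binding siderophores, was highest in WSD+T 5 at 12.5 CPM and WSD+T 4 at 6.42 CPM, against 0.896 to 2.35 CPM in WSD+C, and had a log2 fold change of 1.64, or 1.49 without WSD+C 4. SLC20A1, a phosphate transporter, reached 604 CPM in WSD+T 6, against 55.4 to 168 CPM in WSD+C, and its log2 fold change was 1.27, 1.10 without WSD+C 4 and 0.70 with WSD+C 4 and WSD+T 6 left out. SERPINB1, an inhibitor of neutrophil proteases, had 0.72, or 0.58 without WSD+C 4. Several of these values were smaller without both WSD+T 3 and WSD+T 6, at 0.38 for SERPINB1, 0.54 for GCLC, 0.32 for MAFF, 0.45 for SEMA4B and 0.81 for SLC20A1, all at an unadjusted p above 0.05, while LCN2 had 1.86.

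**Figure D4:**
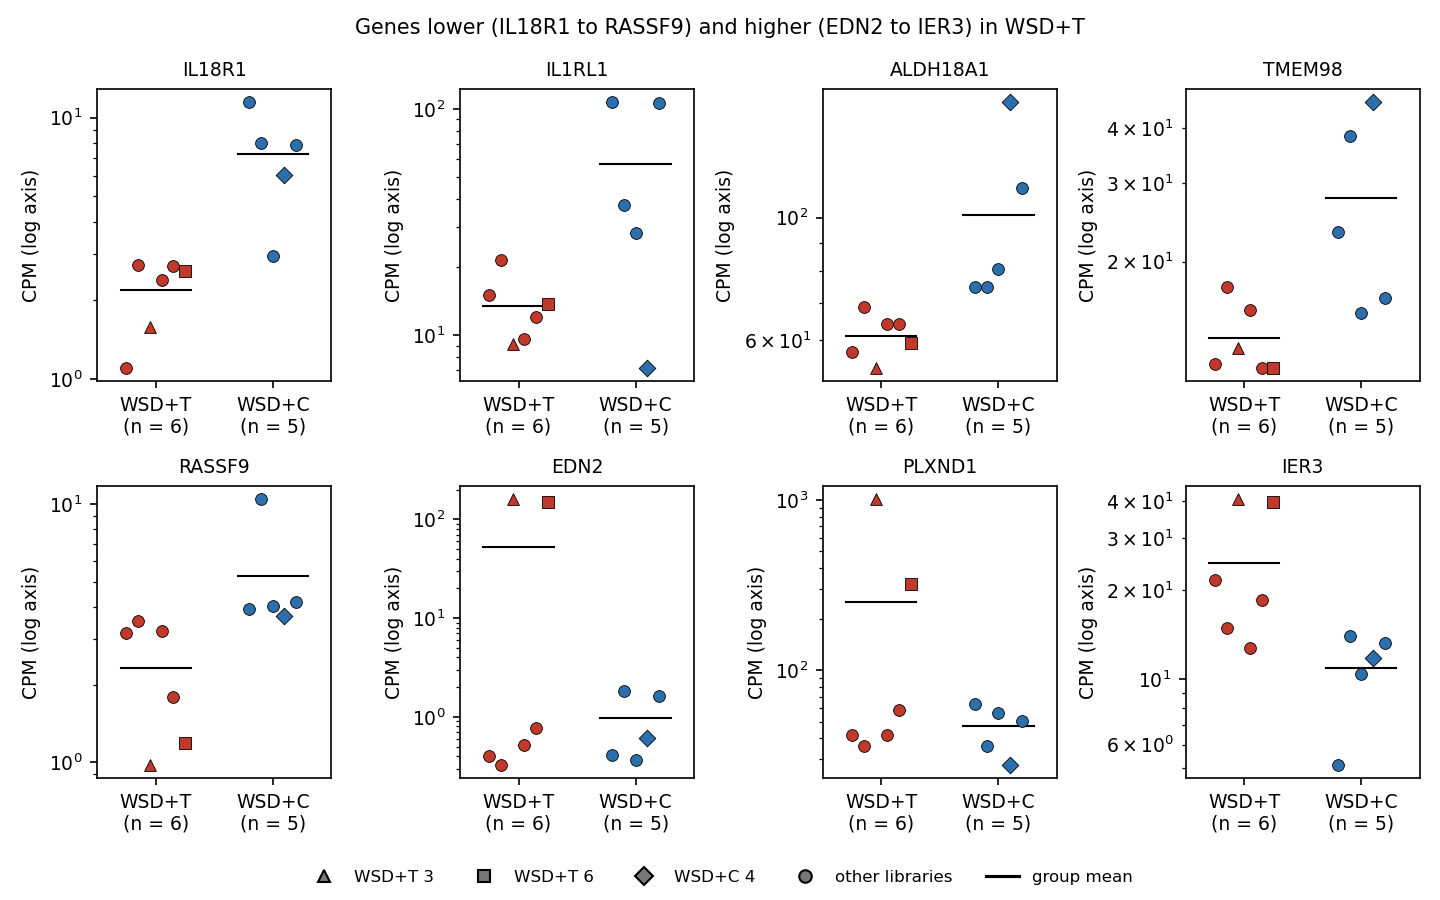
TMM-scaled CPM (log axes) of 5 genes lower and 3 genes higher in WSD+T in each library, WSD+T (red, n = 6) and WSD+C (blue, n = 5); lines are group means. IL18R1, ALDH18A1 and RASSF9 do not overlap between the groups, WSD+C 4 (diamond) is the lowest library for IL1RL1 and the highest for ALDH18A1 and TMEM98, and EDN2 and PLXND1 have their highest values in WSD+T 3 (triangle) and WSD+T 6 (square).

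Several of the higher genes of small p were high in WSD+T 3 and WSD+T 6 and not in the rest of their group. EDN2, an endothelin that granulosa cells make around ovulation in rodents, was at 0.405, 0.327, 161, 0.519, 0.766 and 152 CPM in WSD+T 1 to 6 and at 0.415, 1.84, 0.366, 0.613 and 1.64 CPM in WSD+C 1 to 5. The other 4 WSD+T libraries lay within or below the WSD+C range. For EDN2 the log2 fold change was 5.75 (SE 1.90; unadjusted p = 0.0072, adjusted p = 0.999 by edgeR), 5.63 without WSD+C 4 and -0.95 without both WSD+T 3 and WSD+T 6. The value of EDN2 was thus nearly the same without the library of high HBB and had the opposite sign without those WSD+T libraries.

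The same libraries led other genes. PLXND1, a receptor of semaphorins, was at 1013 and 323 CPM in WSD+T 3 and 6 and at 27.9 to 63.6 CPM in WSD+C, with 2.43, or -0.08 without both. CBARP, a regulator of calcium channels, was at 90.6 and 131 CPM in these libraries and at 9.66 to 12.6 CPM in WSD+C, with 2.01, or 0.26 without both. ADAMTS1, a protease of the ovulating follicle, was at 945 and 1257 CPM there and at 30.0 to 284 CPM in WSD+C, with 1.87, or 0.44 without both. Of the 105 higher genes, 54 (51.4%) had WSD+T 3 and WSD+T 6 as their highest libraries, against 6.08% of all tested genes. Selection as higher in WSD+T by itself raises the first share. Of the 105 genes, 21 kept an unadjusted p under 0.05 when both WSD+T 3 and WSD+T 6 were left out. In that fit 760 of 14815 genes (5.13%) had an unadjusted p under 0.05, 73 higher (0.493%) and 687 lower (4.64%) in WSD+T, and 46.1% of all log2 fold changes were above 0. With WSD+C 4 left out as well, 197 of 14559 genes (1.35%) did, 74 higher (0.508%) and 123 lower (0.845%), and 51.1% were above 0. WSD+T 3 and WSD+T 6 also had the highest leukocyte scores of their group, 3.96 and 6.83 against 0.77 to 1.57 (mean log2 CPM), and WSD+T 3, 4 and 6 came with a degenerating oocyte. Chow+C 2, from a female on chow with the control implant, had 23.2 CPM of EDN2, 409.5 of PLXND1, 64.3 of CBARP and 549 of ADAMTS1. The other chow libraries had at most 2.74, 74.9, 22.2 and 447 CPM of these genes. Chow+C 2 came with a metaphase I oocyte and had a leukocyte score of 0.298. What these libraries have in common was not tested. With oocyte class as a term the log2 fold change was 3.90 for EDN2 (unadjusted p = 0.166), 1.99 for PLXND1 (unadjusted p = 0.0855) and 1.60 for CBARP (unadjusted p = 0.0544). With the leukocyte score as a term it was 4.10 for EDN2 (unadjusted p = 0.157), 2.09 for PLXND1 (unadjusted p = 0.0916) and 1.32 for CBARP (unadjusted p = 0.122).

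Other genes of small p had a high value in WSD+C 4 and like values in the remaining libraries. ACSL6, a fatty acyl-CoA synthetase, was at 1.23 to 1.74 CPM in WSD+T and at 1.68, 2.05, 1.55, 124 and 1.56 CPM in WSD+C 1 to 5. It was among the 10 named lower genes of smallest p, with a log2 fold change of -4.07 (SE 1.02; unadjusted p = 0.0009), and had -0.14 without WSD+C 4. SIDT1, a transmembrane protein, was at 38.0 CPM in WSD+C 4 and at most at 3.50 CPM elsewhere in the 11 libraries, with -2.66, or -0.43 without it. FSHR, the receptor of follicle-stimulating hormone, was at 2.06, 4.34, 6.14, 4.08, 3.55 and 4.89 CPM in WSD+T 1 to 6 and at 6.74, 3.81, 4.61, 81.0 and 6.10 CPM in WSD+C 1 to 5. Apart from WSD+C 4 the groups overlapped, and the log2 fold change was -2.29 (SE 0.70; unadjusted p = 0.0043), or -0.35 (SE 0.37; unadjusted p = 0.369) without that library. HSD17B1, which makes estradiol from estrone, was at 128 CPM in WSD+C 4 and at 11.7 to 25.6 CPM in the other 10 libraries, with -1.11, or 0.08 without it.

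The log2 fold changes of blood and muscle genes had the opposite sign without that library. HBB had a log2 fold change of -4.40 (SE 1.91; unadjusted p = 0.034), and 2.28 (SE 1.45; unadjusted p = 0.134) without WSD+C 4. ALAS2, the first enzyme of heme synthesis in red cell precursors, was at 4970 CPM in WSD+C 4 and at 0.135 to 42.6 CPM in the other 10 libraries, with -5.82, or 1.87 without it. TAGLN, an actin-binding protein of smooth muscle, was at 6.71, 1.91, 11.9, 3.17, 7.02 and 13.6 CPM in WSD+T 1 to 6 and at 1.10, 1.57, 3.64, 205 and 1.24 CPM in WSD+C 1 to 5. Its log2 fold change was -2.52 (SE 1.11; unadjusted p = 0.035) with all libraries and 1.97 (SE 0.56; unadjusted p = 0.0026) without WSD+C 4. TAGLN thus had an unadjusted p under 0.05 with opposite signs in these fits. ACTA2, smooth muscle actin, was at 1942 CPM in WSD+C 4 and at 4.54 to 70.7 CPM elsewhere, with -3.71, or 0.83 without it. HBA2, HBQ1 and KCNMB2 were at -4.04, -4.91 and -3.24 with all libraries and at 1.94, 2.20 and 0.76 without WSD+C 4, and TRIM58 had -4.37 and -0.21. MYLK, a kinase of smooth muscle myosin, had -0.995 (SE 0.97) with all libraries and 2.25 (SE 0.66) without WSD+C 4, and the death receptor TNFRSF10B had -1.64 (SE 0.77) and 0.16 (SE 0.57). Alpha globin genes have near-identical copies, among which reads may have been split.

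White blood cell genes had small p-values when WSD+C 4 was left out. MYO1F, a myosin of white blood cells, was at 2.81, 3.29, 18.8, 3.31, 1.43 and 88.3 CPM in WSD+T 1 to 6 and at 0.366, 0.405, 1.31, 89.4 and 2.98 CPM in WSD+C 1 to 5. WSD+T 6 and WSD+C 4 were alike in level, and the log2 fold change was 0.06 with all libraries, 3.96 (unadjusted p = 0.0051) without WSD+C 4 and -1.67 without WSD+T 6. HCLS1 had 0.09, 3.94 and -1.90 in these fits, ARHGAP45 had -0.79, 4.43 and -2.98, and SLC37A2 had 2.33, 4.72 and -1.35. AIM2, a sensor of DNA in the cytosol, was at 20.6 CPM in WSD+T 6 and 26.4 CPM in WSD+C 4, and S100A9, a calcium-binding protein of neutrophils and monocytes, at 16 and 26.4 CPM. The log2 fold changes of these genes without WSD+C 4 and without WSD+T 6 thus had opposite signs.

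The log2 fold changes of some genes were larger in size once WSD+C 4 was left out. SPG20, which encodes spartin, was at 140 to 197 CPM in WSD+T and at 208, 326, 205, 61.7 and 259 CPM in WSD+C 1 to 5. Every WSD+C library but WSD+C 4 lay above every WSD+T library, and the log2 fold change was -0.28 (unadjusted p = 0.319) with all libraries and -0.51 (SE 0.15; unadjusted p = 0.0044) without WSD+C 4. PPT2, a lysosomal thioesterase, had -0.47 with all libraries and -0.52 without WSD+C 4. Its groups still overlapped then, with WSD+C 2 at 28.2 CPM and WSD+T 1 at 30.7 CPM. LHX9, a homeobox gene of the developing gonad, had -1.31 and -1.47, and MPDZ, a scaffold of cell junctions, had -0.38 and -0.46. For LHX9 the groups also still overlapped, with WSD+C 3 at 1.01 CPM and WSD+T 4 at 1.15 CPM.

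Genes of the steroid pathway overlapped between the groups. STAR, which carries cholesterol into mitochondria, was at 2323, 2332, 4663, 2646, 5019 and 2381 CPM in WSD+T 1 to 6 and at 2496, 4413, 4390, 225 and 2066 CPM in WSD+C 1 to 5. Its log2 fold change was 0.25 (SE 0.64; unadjusted p = 0.702), or -0.05 (SE 0.54) without WSD+C 4, which was the lowest library. CYP11A1, the side-chain cleavage enzyme, had 0.08 (SE 0.59), or -0.21 without WSD+C 4, and HSD3B2, which makes progesterone from pregnenolone, had 0.94 (SE 0.91), or 0.63. HSD3B2 was at 4.22 CPM in WSD+C 4 and at 153 to 2052 CPM in the other 10 libraries. CYP19A1, aromatase, was at 108 to 731 CPM in WSD+T and at 1193, 418, 753, 64.0 and 285 CPM in WSD+C 1 to 5, with -0.49 (SE 0.69), or -0.77 without WSD+C 4. LHCGR, the receptor of luteinizing hormone, was lowest in WSD+C 4 at 0.425 CPM and in WSD+T 6 at 1.96 CPM, and the other 9 libraries had 11.7 to 46.4 CPM, with a log2 fold change of -0.65 (SE 0.69), or -0.96 without WSD+C 4. AKR1C1, an aldo-keto reductase that can inactivate progesterone, was at 1.97 to 22.2 CPM in WSD+T and at 1.73, 70.2, 16.4, 15.1 and 57.3 CPM in WSD+C 1 to 5, with -1.96 (SE 0.92), or -2.14 without WSD+C 4. Of the 19 tested genes of the steroid synthesis list 0 had an adjusted p under 0.05, and at an unadjusted p under 0.05 there were 0 higher and 2 lower (HSD17B1 and AKR1C1). Over all tested genes 0.699% were higher and 3.16% lower at that threshold. Without WSD+C 4 the list held 0 higher and 1 lower (AKR1C1).

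Androgen response genes were split between both directions. Of 20 tested genes of that list, 12 had a log2 fold change above 0, with a median of 0.14, and without WSD+C 4 there were 9 of 19, with a median of -0.01. Over all tested genes 50% were above 0 with all libraries, with a median of -0.0002, and 54.6% without WSD+C 4, with a median of 0.02. At an unadjusted p under 0.05 there were 0 higher and 0 lower members of the list with all libraries, and 1 higher and 0 lower without WSD+C 4. Over all tested genes the shares were 0.699% higher and 3.16% lower with all libraries, and 4.04% and 0.704% without WSD+C 4. The higher member without WSD+C 4 was STEAP4, a metalloreductase, with 3.38 (SE 1.22; unadjusted p = 0.013), against 1.07 (SE 1.19) with all libraries. FKBP5, a chaperone partner and known androgen target, had 0.28, or 0.02 without WSD+C 4.

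Differences in cholesterol genes depended on WSD+C 4. All 26 tested genes of cholesterol synthesis and uptake had a log2 fold change above 0, with a median of 0.28, and all 26 had their lowest value of the 11 libraries in WSD+C 4. Without that library 17 of 26 were above 0, with a median of 0.04, and at an unadjusted p under 0.05 the list held 0 higher and 0 lower members in either fit. The shares over all tested genes were 0.699% higher and 3.16% lower with WSD+C 4, and 4.04% and 0.704% without it. INSIG1, which holds back cholesterol synthesis, had 0.55 (SE 0.33), or 0.36 without WSD+C 4.

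Lists of other metabolic pathways were also closer to 0 without that library. All 24 tested genes of nuclear-encoded oxidative phosphorylation were above 0 with a median of 0.17, and without WSD+C 4 there were 18, with a median of 0.03. WSD+C 4 was the lowest library for 19 of them. Fatty acid oxidation had 19 of 23 above 0 with a median of 0.25, and 17 with a median of 0.16 without WSD+C 4. SLC25A20, the carnitine carrier of mitochondria, had the smallest p of that list, with a log2 fold change of 0.63 (SE 0.25; unadjusted p = 0.024), or 0.45 without WSD+C 4. CPT1A, which commits fatty acids to oxidation, had 1.08, or 1.12. In the list of cholesterol efflux and storage 14 of 16 were above 0 with a median of 0.32, which stood at 0.30 without WSD+C 4 and at -0.01 with WSD+C 4 and WSD+T 6 left out. APOE, the lipoprotein component of that list, was at 1169 to 2070 CPM in WSD+T and at 1198, 906, 1314, 370 and 1065 CPM in WSD+C 1 to 5, with 0.79 (SE 0.37), or 0.58 (SE 0.33; unadjusted p = 0.097) without WSD+C 4. CAV1, the coat protein of caveolae and the lower member of that list at an unadjusted p under 0.05, was at 0.637 to 6.93 CPM in WSD+T and at 5.64, 2.84, 2.85, 21.3 and 3.65 CPM in WSD+C 1 to 5, with -1.46 (SE 0.67; unadjusted p = 0.044), or -0.50 (SE 0.60) without WSD+C 4.

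Ovulatory genes were likewise lowest in WSD+C 4, in 20 of the 25 tested. Their median log2 fold change was 0.20 with 18 above 0, and without that library it was 0.02 with 14 above 0. EDN2 and ADAMTS1, both higher in WSD+T, were the members at an unadjusted p under 0.05, against 0.699% of all tested genes that were higher. AREG, an EGF-like ligand induced by the ovulatory surge, had 1.66, or 1.34 without WSD+C 4, while PTGS2, which starts prostaglandin synthesis, had -0.36, or -0.67, and PGR, the progesterone receptor, had -0.36, or -0.62. Genes of the preovulatory granulosa state had a median of -0.37 with 7 of 17 above 0, and -0.23 with 5 of 17 without WSD+C 4. Without WSD+C 1 that median was 0.03. The FSHR value above is among them.

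Genes of the cell cycle were mostly below 0 with and without WSD+C 4. Of the 30 tested genes of that list 2 were above 0, with a median of -0.83, and 15 had their highest value in WSD+C 4. Without WSD+C 4, 5 of 30 were above 0 with a median of -0.51, and with WSD+C 4 and WSD+T 6 left out there were 3 of 30 with -0.68. At an unadjusted p under 0.05 the list held 1 lower gene with all libraries, AURKA, and 0 higher, and without WSD+C 4 it held 0 in either direction. Of all tested genes 3.16% were lower and 0.699% higher with all libraries, and 0.704% lower and 4.04% higher without WSD+C 4. AURKA, a kinase of the mitotic spindle, was at 0.528 to 3.01 CPM in WSD+T and at 5.08, 0.810, 4.27, 32 and 2.85 CPM in WSD+C 1 to 5, with -2.34 (SE 0.91), or -0.87 (SE 0.80) without WSD+C 4. MKI67, the proliferation marker, had -1.34, or -0.82, and TOP2A, a topoisomerase of dividing cells, had -0.91, or -0.79. The mean log2 CPM of the list was 1.26 to 3.22 in WSD+T and 1.92 to 4.14 in WSD+C, so the groups overlapped.

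Interferon response genes were mostly below 0 with WSD+C 4 and mostly above 0 without it. With all libraries 7 of 24 were above 0 with a median of -0.12, and 16 were highest in WSD+C 4. Without it 23 of 24 were above 0 with a median of 0.57, which was 0.19 with WSD+C 4 and WSD+T 6 left out and 0.0052 without WSD+C 4, WSD+T 3 and WSD+T 6. IFIT1, an antiviral RNA-binding protein, was at 6.92 to 43.2 CPM in WSD+T and at 23.6, 16.9, 13.8, 291 and 25.0 CPM in WSD+C 1 to 5, with -1.92 (SE 0.78; unadjusted p = 0.025), or -0.02 (SE 0.56) without WSD+C 4. Immediate-early genes, transcription factors and regulators induced within minutes of a signal, had 17 of 18 above 0 with a median of 0.24, 14 with 0.28 without WSD+C 4, and 16 with 0.41 with WSD+C 4 and WSD+T 6 left out. Over the fits that left out 1 library the median ranged from 0.11 without WSD+T 4 to 0.46 without WSD+T 6. IER3 and MAFF, both higher, were the members of that list at an unadjusted p under 0.05, with all libraries and without WSD+C 4. Over all tested genes 0.699% were higher at that threshold with all libraries and 4.04% without WSD+C 4.

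**Figure D5:**
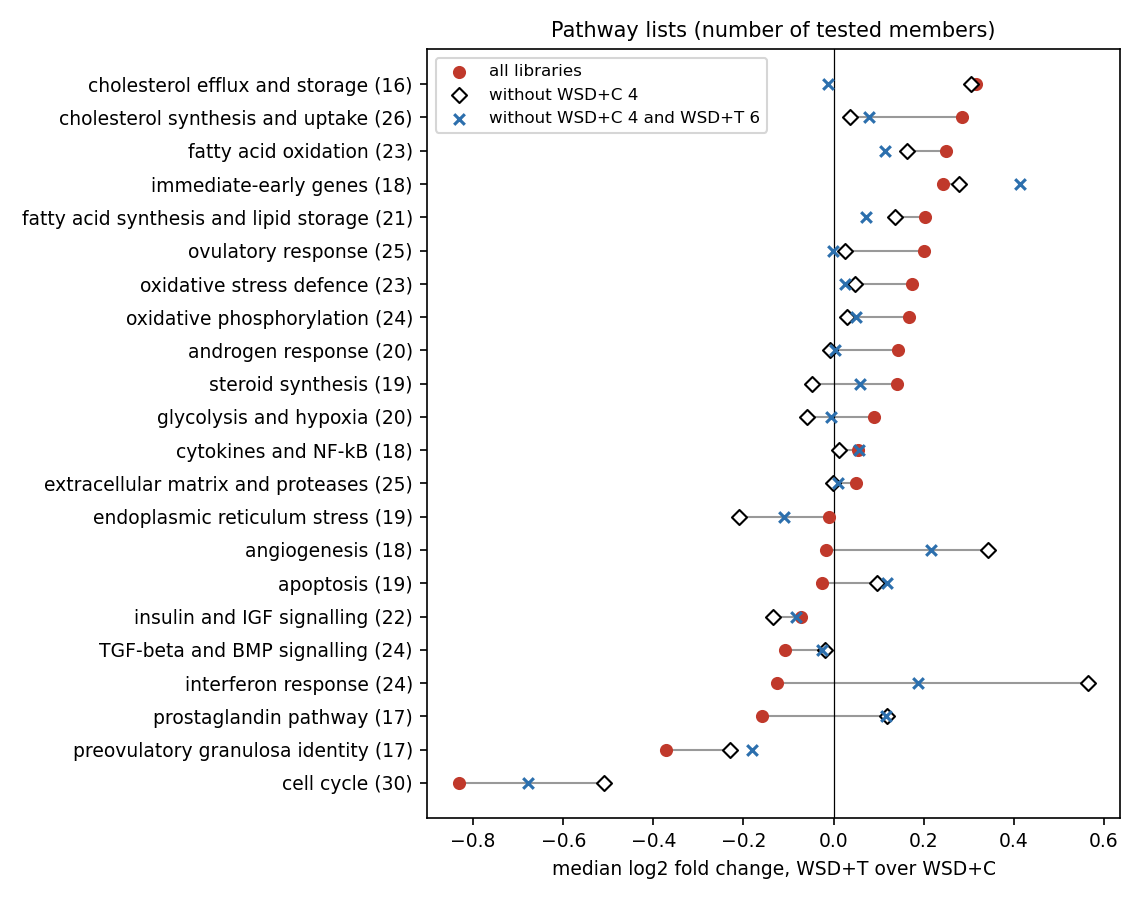
Median log2 fold change, WSD+T over WSD+C, of 22 pathway lists (tested members in brackets) with all libraries (red circles), without WSD+C 4 (open diamonds) and without WSD+C 4 and WSD+T 6 (blue crosses). Cholesterol synthesis and uptake stands at 0.28, 0.04 and 0.08, interferon response at -0.12, 0.57 and 0.19, and the cell cycle list at -0.83, -0.51 and -0.68.

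Medians of the marker lists of other cell types followed the libraries described above. The 10 tested erythroid markers had a median log2 fold change of -4.79 with 0 above 0, and 1.46 with 8 of 9 above 0 without WSD+C 4. Smooth muscle markers had -1.61 with 0 of 8 above 0, and 1.36 with 7 of 8 without WSD+C 4. Lymphocyte markers had -3.42 with 1 of 12 above 0, and 2.01 with 10 of 10. Leukocyte markers had -0.13 with 5 of 10, and 3.74 with 10 of 10, and 0.40 without WSD+C 4, WSD+T 3 and WSD+T 6. Macrophage markers had 2.36 with 13 of 13 above 0, 5.10 without WSD+C 4, -1.29 without WSD+T 6 and 1.17 without both, and all 13 had their highest value in WSD+T 6. CD163, a scavenger receptor of macrophages, was at 5.15, 0.793, 14.4, 1.15, 2.14 and 385 CPM in WSD+T 1 to 6 and at 0.366, 0.594, 3.17, 58.2 and 3.82 CPM in WSD+C 1 to 5. Neutrophil markers had 0.04, or 3.34 without WSD+C 4, platelet markers 0.22, or 1.45, and endothelial markers -0.10, or 0.18. Without WSD+T 6 these medians were -0.42 for neutrophil, -0.21 for platelet and -1.52 for endothelial markers. Markers of surface epithelium had -0.99, or 0.89 without WSD+C 4, those of theca and stroma -0.36, or 0.19, and granulosa markers 0.01, or -0.25. LUM, a marker of stroma, had 0 counts in the 10 libraries other than WSD+C 4.

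Some oocyte genes, such as ZP2, were found in a few libraries, and GDF9 was found in every library. ZP2, a protein of the egg coat, was at 2.06 CPM in WSD+T 1, at 2.69 CPM in WSD+C 3 and at 50 CPM in WSD+C 4, and had 0 counts in the other 8 libraries. GDF9, a growth factor of the oocyte, was at 2.01 to 4.15 CPM in WSD+T, at 21.7 CPM in WSD+C 4 and at 2.86 to 3.86 CPM in the other WSD+C libraries, with a log2 fold change of -1.31, or -0.21 without WSD+C 4. The 7 tested oocyte genes had a median of -4.11 with 0 above 0, and -0.78 with 0 of 4 without WSD+C 4.

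Whether testosterone acted differently on this diet than on chow was tested as an interaction. The chow groups are females on standard chow with a testosterone implant (Chow+T, n = 4) or a cholesterol implant (Chow+C, n = 4), treated over the same time. EdgeR called 0 of 15019 genes (0%; smallest adjusted p = 0.933), with 679 at an unadjusted p under 0.05 (4.52%), limma voom called 0 and DESeq2 called 3, namely RASSF9, CKB and FCRL1. RASSF9 was at 8.98, 11.8, 5.37 and 7.70 CPM in Chow+T and at 1.12, 2.23, 3.42 and 2.67 CPM in Chow+C, so that it was higher with testosterone on chow and lower with it on WSD. The log2 fold change was -1.18 (SE 0.40) on WSD and 1.84 on chow, with an unadjusted p of 0.00015 for the difference by edgeR (adjusted p = 0.933) and an adjusted p of 0.008 by DESeq2. CKB, a creatine kinase, was at 0.0766 to 2.41 CPM in WSD+T, with its highest values in WSD+T 3, 4 and 6, and at 0 to 0.108 CPM in WSD+C. In Chow+C 1 to 4 it was at 0.0267, 1.04, 0.0257 and 0.368 CPM, and in Chow+T at 0.0242 to 0.05885 CPM. These values leave few counts. The FCRL1 call rests on 0 counts in all Chow+T libraries, against 0 to 0.989 CPM in Chow+C. FCRL1 was highest in WSD+C 4 at 8.47 CPM, which lowers and does not raise its positive interaction value of 19.1. Both CKB and FCRL1 lie outside the rule for named genes and are given because DESeq2 called them. In counts simulated for WSD+T against WSD+C, DESeq2 called 52 of 14681 unchanged genes, edgeR 3 and limma voom 3. That check did not cover the interaction, nor a library that stands apart across many genes. SDC4, a cell-surface proteoglycan, had a log2 fold change of 0.36 (SE 0.22) on WSD and 1.48 on chow, with an unadjusted p of 0.0041 for the difference, and FHL2, a LIM-domain cofactor, had 0.41 (SE 0.30) and 1.66, with 0.0138, and neither passed after adjustment (adjusted p at least 0.933 by edgeR).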

How the data were processed

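Granulosa cell RNA came from a Promega ReliaPrep kit, and libraries were TruSeq v2 (polyA, not strand-specific), per the labels' protocols. The authors deposited raw counts of reads per gene. Trimmomatic trimmed the reads and STAR mapped them, as the submitters' processing notes list them, and for both tools the version, as well as the genome build and the read counter, is not given in the material used here. The deposited table has 32386 genes, of which 22922 have a symbol from the file or a reference table. Ambiguous reads (1.62% to 2.25% of all reads), multimapping reads (7.03% to 18.3%), reads outside genes (18.3% to 33.5%) and unmapped reads (1.46% to 3.92%) were left out. Without strand information, reads of antisense and overlapping genes cannot be told apart. Reads carry no molecular identifiers, so depth covers counting error only.

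The fit used edgeR 4.0.16 in R 4.3.3: filterByExpr (minimum count 10, minimum total 15), TMM scaling, and 1 robust quasi-likelihood fit of all 19 libraries in 4 groups, with the contrast WSD+T minus WSD+C, two-sided, and Benjamini-Hochberg adjustment over all tested genes at 0.05. Fold changes are fitted log2 values with SE. Scores are a list's mean log2 CPM, with a prior count of 1. The alternatives were each of the 11 libraries left out (each of 19 for the interaction), WSD+C 4 and WSD+T 6 left out, DESeq2 1.42.0, limma 3.58.1 voom with quality weights, DESeq2 size factors in edgeR, globin genes taken out, no filter on low counts, the WSD libraries alone, and oocyte class, log2 HBB or the leukocyte score as a term. Leaving out WSD+T 3 and WSD+T 6, with and without WSD+C 4, was added after seeing the data. The tests were checked on simulated counts for WSD+T against WSD+C, at an adjusted p of 0.05. Of 14681 unchanged genes edgeR called 3, limma voom 3 and DESeq2 52. Of 50 genes changed 2 fold they called 12, 12 and 20, and of 50 changed 16 fold 46, 48 and 48. The counts were simulated gene by gene from 1 pooled profile, so no simulated library stood apart across many genes as WSD+C 4 did. These rates therefore need not hold for the real libraries.

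Named genes have a symbol and average 0 or more log2 CPM in the 11 libraries. They are the 10 higher and 10 lower genes of smallest p with all libraries and without WSD+C 4, the 10 genes at an unadjusted p under 0.05 whose log2 fold change moved most without WSD+C 4, list members at an unadjusted p under 0.05 (at most 3 per pathway list and 2 per marker list) and a panel (HBB, STAR, CYP11A1, HSD3B2, CYP19A1, LHCGR, FSHR, INSIG1, IL18R1, SDC4 and FHL2). Some genes that the rule names are not reported here. Further list members illustrate their list. The comparison, the 22 pathway lists, the 12 marker lists and the rule for named genes were chosen with earlier results of these data known. Library numbers were given here in accession order and do not pair the groups.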

Additional observations from a re-analysis of the deposited data

Results flagged for a closer look

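Each of 63 genes chosen by the rule for named genes and each of the 34 list scores was looked at in the WSD+T and WSD+C groups for a library far from the rest of its group, by the gap to its nearest neighbour relative to the range of log2 values. Chance flags about 1 in 20 groups. Of 194 groups 29 were flagged (14.9%), and in 21 of these the library was WSD+C 4, with the high HBB. Some of the 63 genes were chosen by how far WSD+C 4 moved them, and others by rank with or without that library. The share flagged therefore cannot be set against the share by chance, and the count for WSD+C 4 is partly fixed by that choice.

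WSD+C 4 was far above the other WSD+C libraries for ACSL6 (124 CPM), FSHR (81 CPM), TAGLN (205 CPM), HSD17B1 (128 CPM), IFIT1 (291 CPM) and the oocyte factor GDF9 (21.7 CPM). It was far below them for SERPINB1 (62 CPM), SPG20 (61.7 CPM), the tumor necrosis factor receptor TNFRSF1A (55.2 CPM), STAR (225 CPM), HSD3B2 (4.22 CPM) and LHCGR (0.425 CPM). Among scores (mean log2 CPM), WSD+C 4 was low for steroid synthesis (5.03), cholesterol synthesis and uptake (4.9), fatty acid synthesis and lipid storage (5.28), glycolysis and hypoxia (5.27), the ovulatory response (3.71) and insulin and IGF signalling (5.91). It was high for the interferon response (4.6), platelet markers (0.738) and surface epithelium markers (4.5).

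The other flags were spread over several libraries. WSD+T 6 was high for the sugar phosphate exchanger SLC37A2 (186 CPM) and for the cholesterol efflux and storage score (6.92), and low for LHCGR (1.96 CPM). WSD+T 3 was high for SLC25A20 (42 CPM), and WSD+T 4 for NR2F2 (47.9 CPM), a nuclear receptor of the theca. WSD+T 2 was low for HBQ1 (0.0933 CPM), and WSD+T 1 was high for the oocyte score (0.563). WSD+C 2 was high for RASSF9 (10.5 CPM).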

How the results depend on the processing

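Between WSD+T and WSD+C, 0 genes passed an adjusted p of 0.05 in every alternative run (the listed ones and those added). At an unadjusted p under 0.05, leaving out 1 library gave 65 (without WSD+T 6) to 597 (without WSD+C 4) higher genes, 104 (without WSD+C 4) to 668 (without WSD+C 2) lower genes, and 16 (without WSD+T 3) to 58 (without WSD+C 3) genes whose groups did not overlap. Without WSD+C 4 and WSD+T 6 there were 226 genes (95 lower) and 66 without overlap. Without WSD+T 3 and WSD+T 6, chosen after seeing the data, 115 did not overlap, and without these and WSD+C 4 there were 197 genes (123 lower) and 205 without overlap. Fewer libraries separate more genes. DESeq2 had 170 higher genes, limma voom 332 genes (172 higher, 160 lower), the fit with no filter on low counts 1329 (202 higher, 1127 lower) with 19 not overlapping, and the WSD libraries alone 337 (260 lower). With log2 HBB as a term there were 260 higher and 281 lower genes, and with the leukocyte score 363 higher. DESeq2 called 3 genes in the interaction. The other alternatives changed these counts less. The cause of each shift was not tested.

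Of 1446 alternative values for 63 genes chosen by the rule for named genes, 106 in 24 genes had the opposite sign of the log2 fold change with all libraries, which was under 0.1 in size for CYP11A1, AIM2, MYO1F and HCLS1. Over the 11 fits that left out 1 library it ranged from -2.84 to 1.97 for TAGLN, -1.08 to 3.23 for AIM2, -1.31 to 2.25 for MYLK, -1.67 to 3.96 for MYO1F, -2.98 to 4.43 for ARHGAP45, -0.12 to 3.93 for S100A9, -1.35 to 4.72 for SLC37A2, -1.90 to 3.94 for HCLS1, -6.31 to 1.87 for ALAS2 and -5.50 to 2.20 for HBQ1. It also ranged from -4.73 to 2.28 for HBB, -4.37 to 1.94 for HBA2, -4.16 to 0.83 for ACTA2, -3.84 to 0.76 for KCNMB2, -1.34 to 0.0804 for HSD17B1, -2.03 to 0.16 for TNFRSF10B, -0.0478 to 0.49 for STAR, -0.21 to 0.38 for CYP11A1 and -0.77 to 0.0271 for CYP19A1. Without WSD+T 3 and WSD+T 6 it was -0.95 for EDN2, -0.0829 for PLXND1, -2.83 for MYO1F, -0.78 for S100A9, -1.52 for SLC37A2, -3.11 for HCLS1, -0.36 for CYP11A1 and -0.0156 for HSD3B2. Without WSD+C 4, WSD+T 3 and WSD+T 6 it was -1.07 for EDN2, -0.22 for PLXND1, 1.31 for TAGLN, 1.11 for AIM2, 1.78 for MYLK, 0.76 for ARHGAP45, 1.10 for ALAS2, 0.42 for HBQ1, 1.85 for HBB, 1.5 for HBA2, 0.32 for ACTA2, 0.0223 for TRIM58, 0.93 for KCNMB2, 0.25 for HSD17B1, 0.19 for TNFRSF10B, -0.12 for STAR, -0.65 for CYP11A1 and -0.33 for HSD3B2. Without WSD+C 4 and WSD+T 6 it was 1.70 for TAGLN, 2.17 for AIM2, 2.18 for MYLK, 2.24 for ARHGAP45, 1.39 for ALAS2, 1.61 for HBQ1, 2.01 for HBB, 1.64 for HBA2, 0.87 for ACTA2, 0.77 for KCNMB2, 0.16 for HSD17B1, 0.28 for TNFRSF10B and -0.37 for CYP11A1. By limma voom it was 0.97 for TAGLN, 2.03 for AIM2, 1.48 for MYLK, 1.76 for ARHGAP45, 2.02 for ALAS2, 2.36 for HBB, 2.08 for HBA2, 0.11 for TRIM58, 0.25 for KCNMB2, 0.0625 for HSD17B1, 0.25 for TNFRSF10B, -0.13 for STAR, -0.57 for CYP11A1 and -0.22 for HSD3B2. With no filter on low counts it was 0.088 for AIM2. With oocyte class as a term it was 0.42 for AIM2, 0.0687 for CYP19A1 and 0.0126 for LHCGR. With log2 HBB as a term it was 1.30 for AIM2, 0.68 for MYLK, 1.87 for ARHGAP45, 0.0007 for HBB and 0.11 for LHCGR. With the leukocyte score as a term it was 0.40 for AIM2, 0.47 for MYLK, 0.0471 for ARHGAP45, 0.27 for HBB, 0.34 for HBA2, 0.26 for CYP19A1 and 0.65 for LHCGR. No paired analysis was possible because the labels give no replicate numbers that the groups share. Depth limits CKB, FMO2 and MIR6812, which had few counts.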

Other observations

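RNA of egg coat genes was not spread evenly. ZP3 was at 3.24 CPM in WSD+T 1, which came with a metaphase II oocyte, and at 0.0385 to 0.137 CPM in the other WSD+T libraries. It was at 3.41 CPM in WSD+C 3, at 35.6 CPM in WSD+C 4 and at 0 to 0.081 CPM in the other WSD+C libraries. BMP15, a growth factor of the oocyte, was at 0.318 CPM in WSD+T 1 and at most at 0.0264 CPM in the other WSD+T libraries, and at 4.18 CPM in WSD+C 3, 67.7 CPM in WSD+C 4 and 0 in the other WSD+C libraries. These genes were picked after their values were seen.

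Some genes outside the rule for named genes, chosen after their values were seen, kept their sign. FMO2, a flavin monooxygenase, was at 0 to 0.0587 CPM in WSD+T and at 0.081 to 0.896 CPM in WSD+C (log2 fold change -3.001, or -2.34 without WSD+C 4). MIR6812 was at 0.173 to 0.45 CPM in WSD+T and at 0.0496 to 0.171 CPM in WSD+C (1.30, or 1.42 without WSD+C 4). In polyA-selected RNA such reads count the primary transcript or its host gene, not the mature miRNA. RMI1, a DNA repair gene, was at 2.95 to 5.50 CPM in WSD+T and at 4.92 to 7.83 CPM in WSD+C (-0.72, or -0.71 without WSD+C 4). All 3 had an unadjusted p under 0.05 whichever library was left out, and an adjusted p = 0.999 by edgeR.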
